A study of Mus musculus with 17 samples.

Results

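The collagen gene family is the set of genes that encode the alpha chains of the collagens, the triple-helical proteins of the extracellular matrix. The 41 genes described here were given as a family list by gene name, not by any measured value, and were matched to the deposited counts by Ensembl identifier. They are 41 of the 50600 genes listed, and all 41 had enough counts to be among the 21494 genes tested. By structure they fall into 11 fibrillar genes, 6 basement membrane (type IV) genes, 2 multiplexins, 3 beaded-filament (type VI) genes, 3 short-chain network genes, 9 FACIT genes (fibril-associated collagens with interrupted triple helices), 4 transmembrane genes and 3 others.

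RNA-seq of polyadenylated RNA was available for 17 mouse libraries, all of strain C57BL/6J. The 3 healthy brains were labelled WT. The 14 tumor libraries, all labelled SMARCB1 -/-, were 3 CNS tumors of SHH subtype, 4 CNS tumors of Myc subtype, 4 extracranial tumors and 3 syngeneic grafts, in which tumor had been placed in the flank. Neither the age of the mice, nor the way Smarcb1 was deleted, nor the tumor that gave rise to the grafts is given in the sources used here, and it is not stated whether libraries came from separate animals. The p-values therefore measure the spread between these libraries, which may in part be technical. Depth ran from 18685672 to 130835711 counted reads per library.

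Collagen chains assemble in threes in the endoplasmic reticulum, where prolines and lysines are hydroxylated, and are trimmed and cross-linked after secretion. Fibrillar collagens form the tensile fibrils of connective tissue, type IV collagen forms the sheet of basement membranes under epithelium and around vessels, and FACIT collagens decorate the surface of fibrils. In healthy brain, collagen is largely limited to vessels, meninges and their basement membranes, while the neural parenchyma holds little fibrillar collagen.

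Levels are given as CPM, read counts scaled to a common library size after TMM normalization, and as CPM per kilobase of the gene's principal transcript where genes are compared with each other. A gene was called higher or lower at an adjusted p under 0.05 in edgeR's quasi-likelihood test, adjusted by Benjamini-Hochberg over all 21494 genes, and every fold change is on the log2 scale. These are bulk samples, so a smaller number of cells of a type and less RNA per cell cannot be told apart. Of the 41 genes, 8 overlap an exon of a gene on the opposite strand (Col4a1, Col4a2, Col4a3, Col5a1, Col9a3, Col10a1, Col15a1 and Col22a1) and 3 overlap one on their own strand (Col3a1, Col7a1 and Col20a1), and because the strand setting of the counting is not given in the sources used here, reads at those overlaps are of uncertain origin.

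The labels were first checked on Smarcb1, whose product belongs to the core of the SWI/SNF chromatin remodeller. Its level was 124 ± 6.94 CPM (SD, n = 3) in healthy brain and 29.0 ± 3.35 (n = 3) in grafts, while SHH tumors held 13.999 ± 16.8 (n = 3), Myc tumors 10.4 ± 3.07 (n = 4) and extracranial tumors 15.4 ± 7.31 (n = 4). Every tumor library lay below every brain, and all 4 tumor groups were called lower, with adjusted p between 0.000532 and 0.0277.

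One healthy brain stood apart in its collagen genes. Healthy brain 1 exceeded both other brains for 36 of the 41 genes, by more than 2-fold for 20 and by more than 5-fold for 7. The same shares over all genes were not computed, so these counts do not show a trait particular to collagen genes. Col10a1, the collagen of hypertrophic growth-plate cartilage, was at 62.0 CPM there and at 0.126 and 0.247 in the other brains. Healthy brain 1 also carried the cartilage genes Acan at 70.9 and Matn1 at 16.2 CPM, the bone gene Ibsp at 152, the muscle gene Acta1 at 138 and the pituitary hormone genes Gh at 1215 and Pomc at 143. The 10 cartilage markers summed to 212 CPM there and to 41.2 and 45.6 in the other brains, so transcripts of that list were not limited to it. Skeletal muscle markers were also present in tumors: the summed level of 12 skeletal muscle genes was 184 CPM in Extracranial tumor 1, 124 in Extracranial tumor 2 and 112 in Myc CNS tumor 1, against 18.1 and 17.04 in Healthy brain 2 and 3. The lowest extracranial tumor held 56.8 CPM, also above both of these brains. The sum of 6 pituitary genes reached 193 CPM in a Myc tumor. Healthy brain 1 and the tumors named are below called the 4 libraries with the highest muscle sums. Libraries kept without them still held such transcripts.

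**Figure D1:**
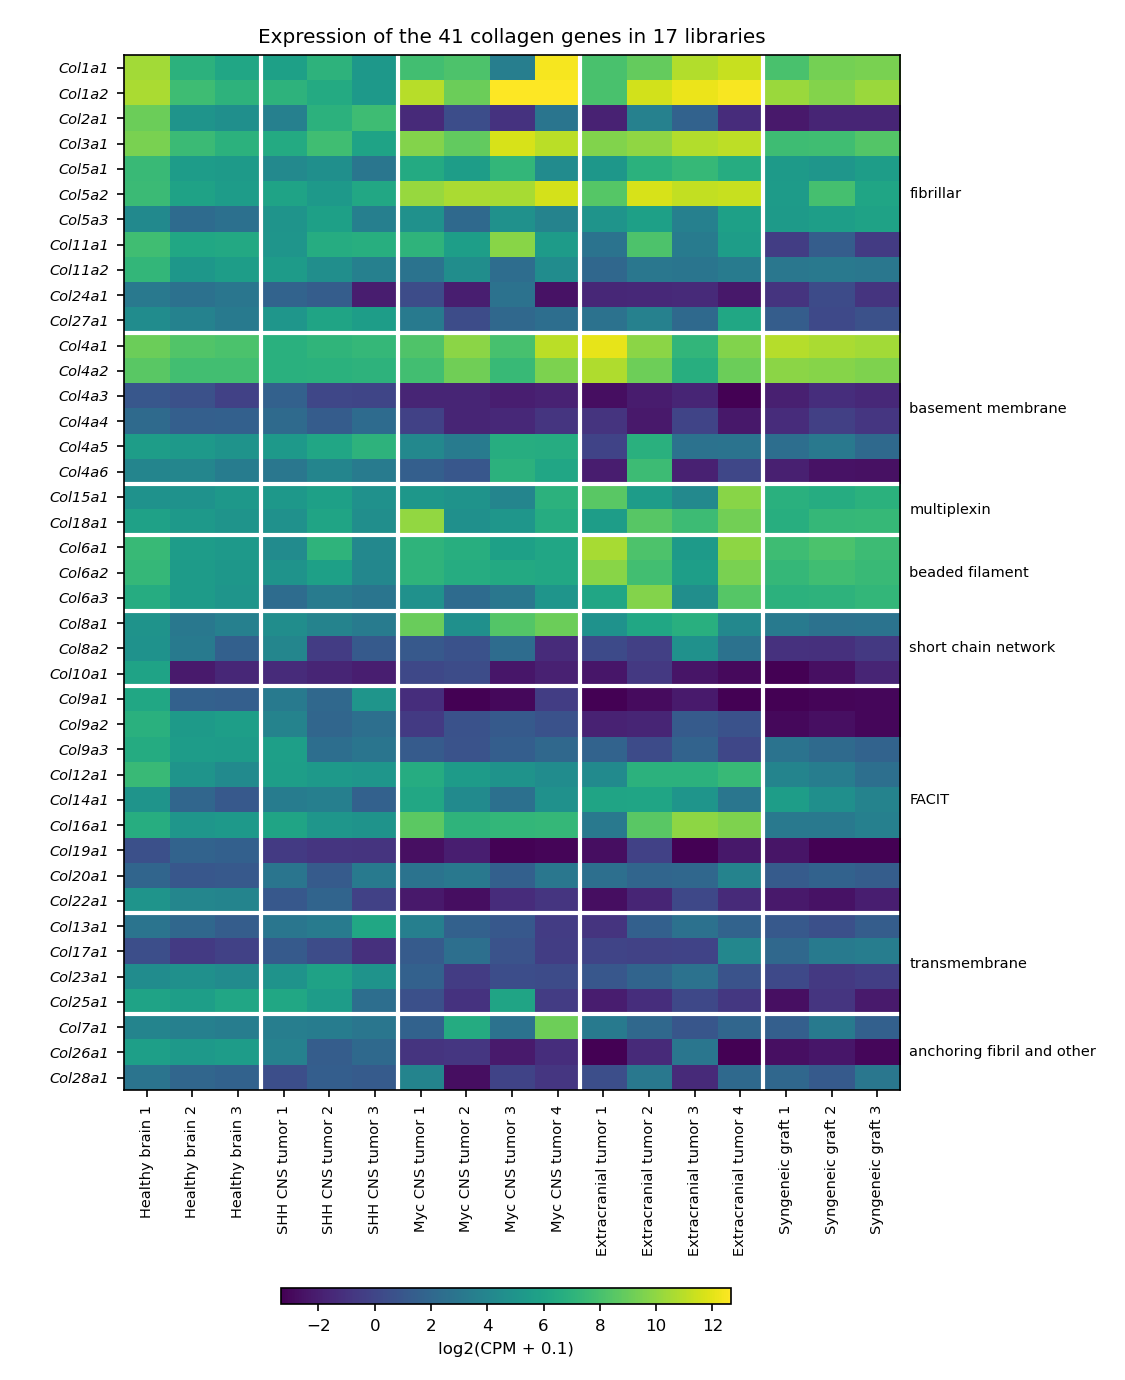
Heat map of the 41 collagen genes (rows, by structural class) in the 17 libraries (columns, by group), colored by log2(CPM + 0.1). Healthy brain 1 is brighter than the other brains in most rows, and Col9a1, Col9a2, Col22a1 and Col26a1 are dark in most Myc tumors, extracranial tumors and grafts.

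The largest sums of collagen transcripts were found in Myc and extracranial tumors. Summed over the 41 genes, healthy brains held 7514, 1949 and 1664 CPM, of which the first is Healthy brain 1. SHH tumors held 1297, 1781 and 1403 CPM, of which the second lay between Healthy brain 2 and 3 and the others lay below all brains. Myc tumors held 7575, 5162, 13741 and 22228 CPM and extracranial tumors 10965, 12671, 12975 and 19308 CPM. The grafts were nearly equal to each other, at 5496, 5456 and 5501 CPM. Every Myc and extracranial tumor and every graft lay above Healthy brain 2 and 3, while Healthy brain 1 lay above every graft and above Myc CNS tumor 2.

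The classes that made up these sums differed between Myc tumors and grafts. Fibrillar genes gave 71.2 ± 15.5% (SD, n = 4) of the collagen CPM in Myc tumors, and 38.6 ± 5.49% (n = 3) in grafts. The mean share of the grafts lay between those of Healthy brain 2 and 3. The shares of Myc CNS tumor 1 and Myc CNS tumor 2 lay below that of Healthy brain 1. The 6 type IV genes gave 45.0 ± 6.16% (n = 3) in grafts, where they summed to 2824, 2437 and 2149 CPM against 1008, 613 and 557 CPM in the brains. Single tumors departed from their group. In Extracranial tumor 1 the type IV genes summed to 6066 CPM and the fibrillar genes to 1791 CPM, while in Extracranial tumor 3 these sums were 259.7 and 11051 CPM. Per kilobase, Col1a2 was the most abundant collagen transcript in Myc CNS tumor 1, 3 and 4, in Extracranial tumor 2, 3 and 4, in Syngeneic graft 3 and in Healthy brain 1. Col4a1 led in Extracranial tumor 1, in Syngeneic graft 1 and 2 and in Healthy brain 2 and 3, and Col5a2 led in Myc CNS tumor 2. Each SHH tumor had another leading gene: Col25a1 in the first, Col3a1 in the second and Col2a1 in the third. These rankings depend on the length used. The principal transcript of Col25a1 holds 2.624 of 12.947 kb of annotated exons, and that of Col1a2 5.348 of 12.426 kb. Rankings with other lengths were not computed.

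**Figure D2:**
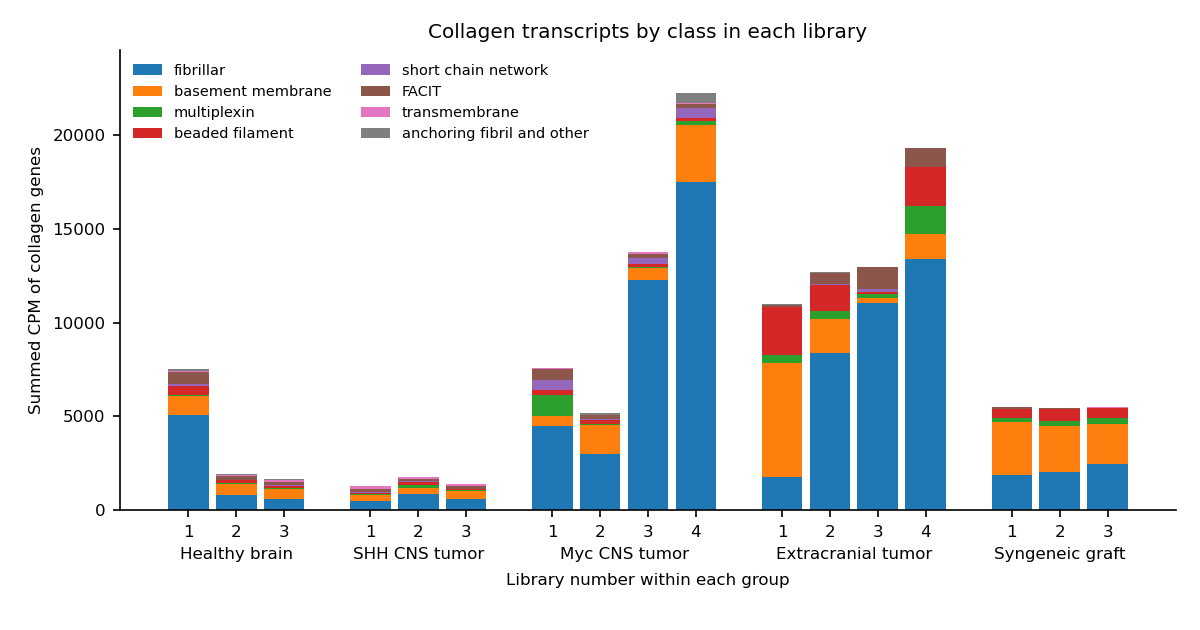
Summed CPM of the collagen genes of each structural class (stacked segments, linear axis from 0) in each of the 17 libraries. Fibrillar genes fill most of the bar in Myc CNS tumor 3 and 4 and in Extracranial tumor 2, 3 and 4, and type IV genes are the largest segment in Extracranial tumor 1 and in Syngeneic graft 1 and 2.

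Against healthy brain, the Myc tumors had 4 collagen genes called higher and 12 called lower, where 25.3% and 26.8% of all genes tested were called. Extracranial tumors had 8 higher and 14 lower (all genes 26.1% and 26.1%). Grafts had 2 higher and 20 lower (all genes 24.9% and 30.4%). The median log2 fold change of the 41 genes was -0.07 in Myc tumors, 0.20 in extracranial tumors and -2.43 in grafts, where the medians over all genes were -0.01, 0.05 and -0.16. These comparisons share the 3 brain libraries. Without Healthy brain 1, 13 of the 16 calls in Myc tumors, 18 of the 22 in extracranial tumors and 16 of the 22 in grafts were kept. The calls lost without it were those of Col2a1, Col7a1 and Col10a1 in Myc tumors, Col2a1, Col6a3, Col10a1 and Col15a1 in extracranial tumors, and Col8a2, Col10a1, Col12a1, Col16a1, Col17a1 and Col24a1 in grafts. Without Healthy brain 1, Myc CNS tumor 1 and Extracranial tumor 1 and 2 together, 12, 15 and 19 calls were kept. Lost were then Col2a1, Col9a1, Col10a1 and Col11a2 in Myc tumors, Col2a1, Col6a3, Col10a1, Col15a1, Col24a1, Col25a1 and Col26a1 in extracranial tumors, and Col4a3, Col10a1 and Col24a1 in grafts. In every alternative analysis that gave an adjusted p, 10, 9 and 12 calls were kept.

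SHH tumors had 0 collagen genes called against brain in edgeR, where 2.44% and 1.94% of all genes were called higher and lower. At an unadjusted p under 0.05 there were 9 of the 41, and DESeq2 called 1 higher and 5 lower and limma voom 4 higher and 7 lower. For these counts the shares of all genes are not given here, so they do not show a trait particular to collagen genes. The genes with the smallest p were Col22a1, with log2 fold change = -3.31 ± 0.91 SE, adjusted p = 0.0548, and Col9a2, with log2 fold change = -3.13 ± 0.88 SE, adjusted p = 0.0565.

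Myc tumors against SHH tumors gave 8 collagen genes higher and 11 lower (all genes 19% and 21.9%), with a median of 0.38 over the family and 0.00 over all genes. With Healthy brain 1 and SHH CNS tumor 1 both left out, 12 of these 19 calls were kept. Extracranial against Myc tumors gave 0 calls (all genes 0% and 0.0186%), although 10 genes had an unadjusted p under 0.05, and DESeq2 called 4 higher and 4 lower and limma voom 0. Shares of all genes are again not given here for the unadjusted, DESeq2 and limma voom counts. Grafts against extracranial tumors gave 0 higher and 7 lower (all genes 2.16% and 2.62%). In that comparison none of the 7 calls was kept under every alternative, and a fit of those 7 libraries alone called 0.

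**Figure D3:**
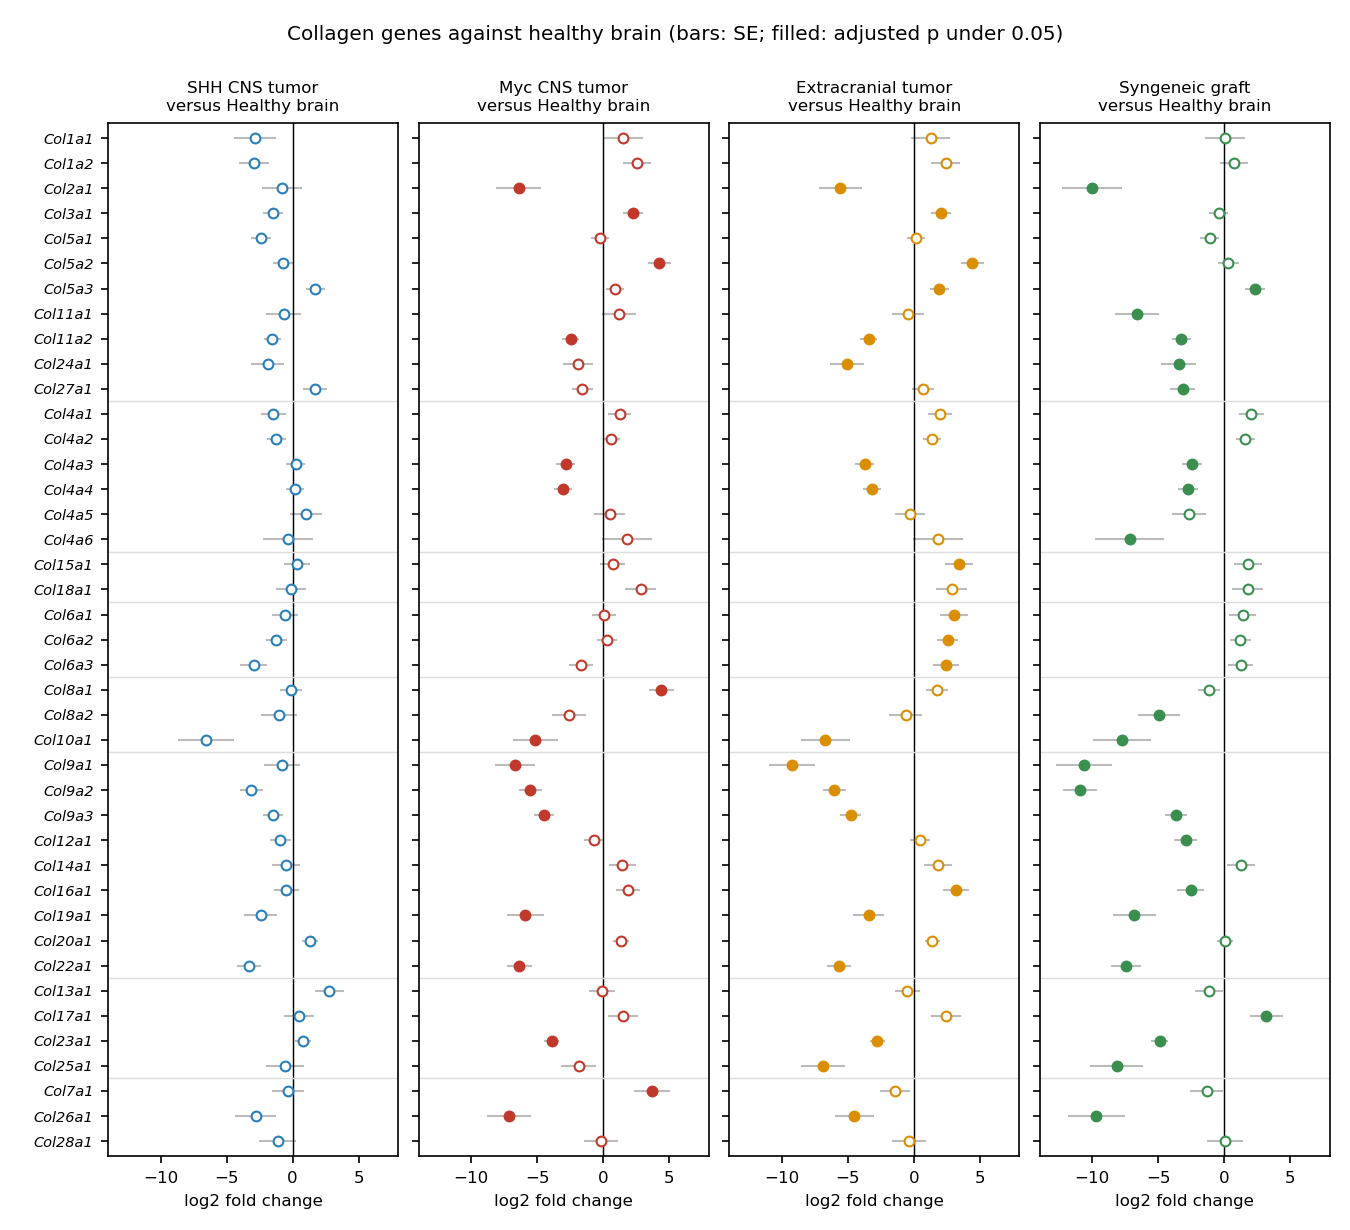
Log2 fold change against healthy brain of each collagen gene (points, bars are SE) in SHH, Myc and extracranial tumors and in grafts, with filled points for genes called at adjusted p under 0.05. No point is filled for SHH tumors, Col5a2 lies far to the right in Myc and extracranial tumors, and the FACIT genes Col9a1, Col9a2 and Col22a1 lie far to the left outside SHH tumors.

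Among the fibrillar genes, Col5a2 was higher in each Myc and extracranial tumor than in every other library. It encodes a chain of type V collagen, which nucleates fibrils and limits their width, and lies at chr1:45374321-45503282, minus strand (build GRCm38, mm10, as for all coordinates given here). Its level was 191, 58.9 and 45.0 CPM in brain, 62.4, 39.8 and 77.5 in SHH tumors, 1194, 1567, 1548 and 3233 in Myc tumors, 353, 3315, 2371 and 2570.5 in extracranial tumors and 43.9, 253 and 68.2 in grafts. The lowest of these tumors was Extracranial tumor 1, and the nearest other library was Syngeneic graft 2. The change against brain was 4.26 ± 0.87 (adjusted p = 0.00112) in Myc and 4.45 ± 0.87 (adjusted p = 0.000853) in extracranial tumors, and both calls held in every alternative. Myc tumors were also higher than SHH tumors (log2 fold change = 4.98 ± 0.90 SE, adjusted p = 0.000857). Grafts were lower than extracranial tumors (log2 fold change = -4.14 ± 0.86 SE, adjusted p = 0.0249), a call that was lost without Syngeneic graft 1 or Syngeneic graft 3 (adjusted p = 0.102 to 0.103).

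Type III collagen, which makes the thin fibrils of distensible tissue and vessel walls, is encoded by Col3a1 (chr1:45311538-45349706, plus strand), the neighbour of Col5a2 on the opposite strand, 24.6 kb away. Its level was 709, 195 and 126 CPM in brain, 88.5, 218 and 62.5 in SHH tumors, 831, 449, 3333 and 2086 in Myc tumors, 813, 1017, 1826 and 2133 in extracranial tumors and 213, 216 and 339 in grafts. Each Myc and extracranial tumor lay above Healthy brain 2 and 3, but Myc CNS tumor 2 lay below Healthy brain 1. The change against brain was 2.29 ± 0.75 (adjusted p = 0.0202) in Myc tumors, lost without Healthy brain 2, Healthy brain 3 or Myc CNS tumor 3 (adjusted p = 0.0642 to 0.0815), and 2.08 ± 0.74 (adjusted p = 0.0303) in extracranial tumors, lost without Healthy brain 2, Healthy brain 3, Extracranial tumor 3 or Extracranial tumor 4 (adjusted p = 0.0524 to 0.113). The rise from SHH to Myc tumors (log2 fold change = 3.77 ± 0.81 SE, adjusted p = 0.00255) held in every alternative.

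Type I collagen, the main fibrillar collagen of bone, skin and tendon, is built from the products of Col1a1 and Col1a2. Col1a2 (chr6:4504814-4541544, plus strand) was at 1948, 535, 6268 and 6532 CPM in Myc tumors, 277, 3098, 4818 and 5784 in extracranial tumors and 1233, 824 and 1227 in grafts, against 130.1, 87.9 and 40.9 in SHH tumors and 1624, 206 and 128 in brain. Its difference between Myc tumors and brain was 2.55 ± 1.08 (adjusted p = 0.0614), not called. It was called without Healthy brain 1 (log2 fold change = 4.51, adjusted p = 0.010002) and without Myc CNS tumor 2 (2.93, adjusted p = 0.0339), and by DESeq2 and limma voom with all libraries. Against SHH tumors, which do not overlap with Myc tumors, the rise was 5.47 ± 1.26 (adjusted p = 0.00389) and held in every alternative. Col1a1 (chr11:94936224-94953042, plus strand) was at 1392, 126 and 71.6 CPM in brain, 55.1, 128 and 36.9 in SHH tumors, 231, 297, 11.3 and 5548 in Myc tumors, 265, 466, 1831 and 2612 in extracranial tumors and 272, 656 and 702 in grafts, and was not called in any of the 7 comparisons.

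The balance between partner chains was compared per kilobase of the principal transcript. The ratios depend on that choice: this transcript holds 5.93 of 6.563 kb of annotated exons for Col1a1 and 5.348 of 12.426 kb for Col1a2. A type I collagen molecule normally holds more of the Col1a1 product than of the Col1a2 product. The ratio of Col1a1 to Col1a2 was 0.773, 0.550 and 0.506 in brain, 0.382, 1.31 and 0.814 in SHH tumors, 0.107, 0.500, 0.00163 and 0.766 in Myc tumors, 0.864, 0.136, 0.343 and 0.407 in extracranial tumors and 0.199, 0.718 and 0.516 in grafts. Myc CNS tumor 3 stands apart, with 6268 CPM of Col1a2 but 11.3 of Col1a1, which still rests on 1299 reads. In Myc CNS tumor 4, the library with the most Col1a1 (5548 CPM), the ratio was 0.766. These ratios are of transcripts, and the protein was not measured.

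The chains of type V collagen were compared in the same way. Col5a1, which encodes its other major chain, ran from 41.6 to 183 CPM in brain, 20.8 to 155 in Myc and 35.5 to 167 in extracranial tumors, and was called in neither against brain. The per-kilobase ratio of Col5a1 to Col5a2 was 0.622 to 0.755 in brain, 0.00508 to 0.0790 in Myc tumors and 0.0281 to 0.0792 in extracranial tumors, with no overlap between either tumor group and brain. Grafts held 0.751, 0.107 and 0.561 and SHH tumors 0.236, 0.497 and 0.0774. The partners Col4a1 and Col4a2 kept a ratio of 0.992 to 2.75 over all 17 libraries, and Col6a1 and Col6a2 one of 0.643 to 2.43.

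**Figure D4:**
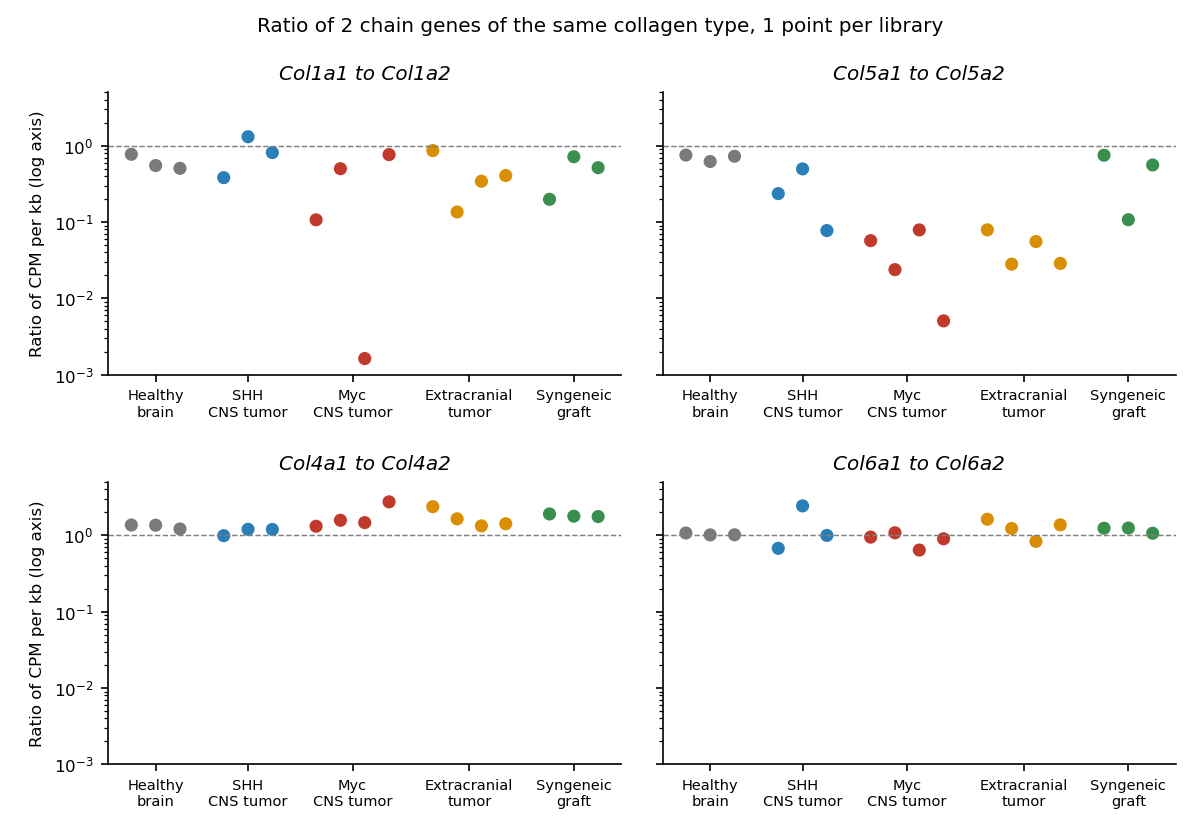
Per-kilobase ratio of partner chains (log axis, dashed line at equal levels) in each library, by group: Col1a1 to Col1a2, Col5a1 to Col5a2, Col4a1 to Col4a2 and Col6a1 to Col6a2. The type IV and type VI ratios stay near the line, the type V ratio lies below the brains in Myc and extracranial tumors, and the type I ratio is lowest in Myc CNS tumor 3, at 0.00163.

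Col5a3, a rarer type V chain, was called higher in grafts (log2 fold change = 2.36 ± 0.76 SE, adjusted p = 0.0169), at 42.7, 50.03 and 59.7 CPM against 19.1, 4.76 and 5.85 in brain. The call was lost without Healthy brain 2 or Healthy brain 3 (adjusted p = 0.0668 for each). In extracranial tumors, at 31.0, 55.1, 12.6 and 53.4 CPM, its change was 1.94 ± 0.72 (adjusted p = 0.0353), lost without Healthy brain 2, Healthy brain 3, Extracranial tumor 2 or Extracranial tumor 4 (adjusted p = 0.0743 to 0.126).

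The cartilage fibril genes Col2a1 and Col11a2 were lower in tumors other than SHH. Col2a1 encodes type II collagen, the main fibril of cartilage, and Col11a1 and Col11a2 encode type XI chains that share its fibrils. Col2a1 was at 551, 31.3 and 24.8 CPM in brain, 12.3, 123 and 209.7 in SHH tumors, 0.273, 1.25, 0.402 and 7.41 in Myc tumors, 0.195, 13.2, 3.13 and 0.306 in extracranial tumors and 0.113, 0.221 and 0.219 in grafts. Each Myc tumor, extracranial tumor and graft lay below every brain. The fall in grafts (log2 fold change = -10.05 ± 2.28 SE, adjusted p = 0.00213) held in every alternative but rests on 4 to 21 reads per graft, while those in Myc and extracranial tumors were both lost without Healthy brain 1 (adjusted p = 0.0600 and 0.134). Myc tumors were also lower than SHH tumors (log2 fold change = -5.59 ± 1.64 SE, adjusted p = 0.0148). Of 10 cartilage markers, Matn3 ran high in Myc CNS tumor 4 and Extracranial tumor 3, at 1066 and 954 CPM of summed levels of 1230.1 and 959, while Matn1 was at 0.0747 and 0.239.

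Col11a1 was lower in each graft than in every other library. Its level was 217, 74.0 and 79.3 CPM in brain, 32.4, 94.3 and 106 in SHH tumors, 134, 49.4, 909 and 43.2 in Myc tumors, 6.63, 296, 10.02 and 47.2 in extracranial tumors and 0.647, 2.52 and 0.585 in grafts. The grafts differed by -6.62 ± 1.69 (adjusted p = 0.00454) from brain, kept in every alternative, and -6.16 ± 1.63 (adjusted p = 0.0462) from extracranial tumors, lost without Extracranial tumor 2, Extracranial tumor 4, Syngeneic graft 1, Syngeneic graft 2 or Syngeneic graft 3 (adjusted p = 0.0560 to 0.165). Col11a2 was lower in extracranial tumors than in brain (log2 fold change = -3.42 ± 0.64 SE, adjusted p = 0.000616), at 3.95, 7.94, 7.28 and 10.1 against 153, 35.4 and 46.8 CPM, and this call held throughout.

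Col24a1 and Col27a1 encode fibrillar chains known from developing bone and cartilage. Col24a1 was at 8.70, 6.07 and 7.56 CPM in brain and 0.244, 0.253, 0.268 and 0.102 in extracranial tumors, with no overlap, and its change was -5.08 ± 1.30 (adjusted p = 0.00486), lost without the 4 libraries with the highest muscle sums (adjusted p = 0.0722). That change rests on 3 to 13 reads per extracranial tumor. Col27a1 was at 34.3, 63.8 and 47.1 CPM in SHH tumors and 9.29, 1.20, 4.08 and 5.49 in Myc tumors, which were lower (log2 fold change = -3.27 ± 0.87 SE, adjusted p = 0.00852), a call that held in every alternative. Extracranial tumor 4 carried 73.0 CPM, against 4.27 to 12.8 in the other extracranial tumors.

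Type IV collagen is built from 3 pairs of genes, each pair lying head to head on opposite strands, so that the genes of a pair start near each other. Col4a1 (chr8:11198423-11312826, minus strand) and Col4a2 (chr8:11312805-11449287, plus strand) encode the chains found in nearly all basement membranes, and their annotated starts overlap by 22 bases. Col4a3 and Col4a4 start 71 bases apart, and Col4a5 (chrX:141475385-141689234, plus strand) and Col4a6 (chrX:141165403-141474076, minus strand) start 1308 bases apart. The overlap of Col4a1 and Col4a2, at chr8:11312805-11312826 on the plus strand, and the stretches upstream of Col4a5 (chrX:141475169-141475369, plus strand) and Col4a6 (chrX:141474096-141474326, minus strand) are shown because they lie at or between the starts of genes whose levels are compared here. Sequences are from RefSeq on GRCm38.p6, each 5′ to 3′ on the strand given, with a GC box (GGGCGG) or CCAAT box (CCAAT) in capitals.
Col4a1 and Col4a2: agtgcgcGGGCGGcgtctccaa
Col4a5: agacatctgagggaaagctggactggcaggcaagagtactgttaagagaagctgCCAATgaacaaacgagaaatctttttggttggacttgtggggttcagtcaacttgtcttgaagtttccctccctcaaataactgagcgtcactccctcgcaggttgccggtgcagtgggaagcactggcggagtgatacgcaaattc
Col4a6: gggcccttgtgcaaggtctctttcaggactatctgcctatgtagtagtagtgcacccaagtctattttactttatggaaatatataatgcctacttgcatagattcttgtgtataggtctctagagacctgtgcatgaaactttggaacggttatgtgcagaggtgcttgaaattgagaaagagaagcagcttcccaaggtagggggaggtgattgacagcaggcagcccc

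The Col4a5 stretch held the CCAAT box 196 bases before the gene's RefSeq start, which lies downstream of the annotated start given above, and the Col4a6 stretch held none of 3 motifs searched. Over the 250 bases before each RefSeq start, both strands, a CCAAT box (CCAAT or ATTGG) was found for 12 of the 32 collagen genes with a RefSeq window (37.5%) and in 33.8% of all windows of that length. A GC box (GGGCGG or CCGCCC) was found for 18 of 32 and in 32.7% of all windows, and a TATA box (TATAAA or TTTATA) for 5 of 32 and in 12.4%. A match to these letters is a description and does not show that a factor binds there.

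Col4a1 was at 547, 322 and 285 CPM in brain, 114, 144 and 162 in SHH tumors, 313, 971, 262 and 2085 in Myc tumors, 4302, 939.99, 146 and 787 in extracranial tumors and 1865, 1570.2 and 1381 in grafts. Col4a2 was at 390.1, 231 and 229 CPM in brain, 112, 117 and 132 in SHH tumors, 232, 599.7, 174 and 738 in Myc tumors, 1763, 556, 107 and 539.6 in extracranial tumors and 953, 858 and 763 in grafts. SHH tumors lay below every brain for both genes, and grafts above every brain. In grafts the difference from brain was 2.06 ± 0.93 (adjusted p = 0.0739) for Col4a1 and 1.60 ± 0.72 (adjusted p = 0.0733) for Col4a2, neither of them called, although limma voom and a fit of these 6 libraries alone called both. Myc tumors were higher than SHH tumors for Col4a1 (log2 fold change = 2.70 ± 0.93 SE, adjusted p = 0.0317), a call lost without SHH CNS tumor 1, SHH CNS tumor 2, SHH CNS tumor 3 or Myc CNS tumor 4 (adjusted p = 0.0714 to 0.0987). The same held for Col4a2 (log2 fold change = 1.86 ± 0.70 SE, adjusted p = 0.0467), lost without SHH CNS tumor 1, SHH CNS tumor 2, SHH CNS tumor 3, Myc CNS tumor 2 or Myc CNS tumor 4 (adjusted p = 0.0937 to 0.120).

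Endothelial and mural markers, which mark cells that lay down vessel basement membranes, were read beside these genes. The summed level of 10 endothelial markers was 236 to 303 CPM in brain. It was 103 to 174 CPM in the SHH tumors, 223 to 359 CPM in the Myc tumors, 126 to 414 CPM in the extracranial tumors and 464 to 583 CPM in grafts. The 10 mural cell markers summed to 297 to 439 CPM in brain. This sum was 174 to 249 CPM in the SHH tumors, 165 to 639 CPM in the Myc tumors, 198 to 1034 CPM in the extracranial tumors and 472 to 594 CPM in grafts. None of these 20 markers was at 0 in any library. Their part in the type IV levels was not tested.

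Col4a3 and Col4a4, whose chains build the basement membranes of kidney glomerulus and lung, were low in brain and lower in Myc and extracranial tumors. Col4a3 was at 1.97, 1.45 and 0.748 CPM in brain and at or below 0.332 CPM in every Myc tumor, extracranial tumor and graft. Its change was -2.84 ± 0.71 (adjusted p = 0.00428) in Myc and -3.72 ± 0.74 (adjusted p = 0.000936) in extracranial tumors. Col4a4 was at 4.59, 2.79 and 2.85 CPM in brain and 0.102 to 0.865 CPM in those 3 groups, with -3.03 ± 0.69 (adjusted p = 0.00242) in Myc and -3.17 ± 0.69 (adjusted p = 0.00182) in extracranial tumors. These 4 calls held in every alternative but rest on few reads in the tumors. Col4a3 had 4 to 18 reads per library in Myc and 0 to 7 in extracranial tumors, and Col4a4 had 4 to 31 and 3 to 29. SHH tumors, at 3.01, 0.940 and 0.906 CPM for Col4a3 and 4.51, 2.47 and 4.66 CPM for Col4a4, overlapped with brain.

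Col4a5 and Col4a6, whose chains join in the basement membranes of smooth muscle and several epithelia, split the tumors library by library. Col4a6 was at 15.6, 15.9 and 10.6 CPM in brain, 7.96, 15.1 and 10.1 in SHH tumors, 2.73, 1.93, 125 and 69.4 in Myc tumors, 0.146, 203, 0.179 and 0.952 in extracranial tumors and 0.169, 0.0737 and 0.0627 in grafts. Col4a5 was at 48.1, 39.3 and 30.1 CPM in brain, 38.02, 69.3 and 129 in SHH tumors, 17.4, 9.80, 97.9 and 94.5 in Myc tumors, 0.8292, 116, 6.44 and 6.80 in extracranial tumors and 5.43, 8.62 and 4.42 in grafts. Myc CNS tumor 3 and 4 and Extracranial tumor 2 had both genes above every brain, and the other Myc and extracranial tumors had both below the lowest brain. In the 3 high libraries the per-kilobase ratio of Col4a5 to Col4a6 was 0.798, 1.39 and 0.581, against 3.14, 2.51 and 2.88 in brain and 32.7, 119 and 71.7 in grafts. Grafts, with 4 to 6 reads of Col4a6 per library, were called lower than brain for it (log2 fold change = -7.17 ± 2.59 SE, adjusted p = 0.0293), lost without Syngeneic graft 1, Syngeneic graft 2 or Syngeneic graft 3 (adjusted p = 0.0701 to 0.0906).

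**Figure D5:**
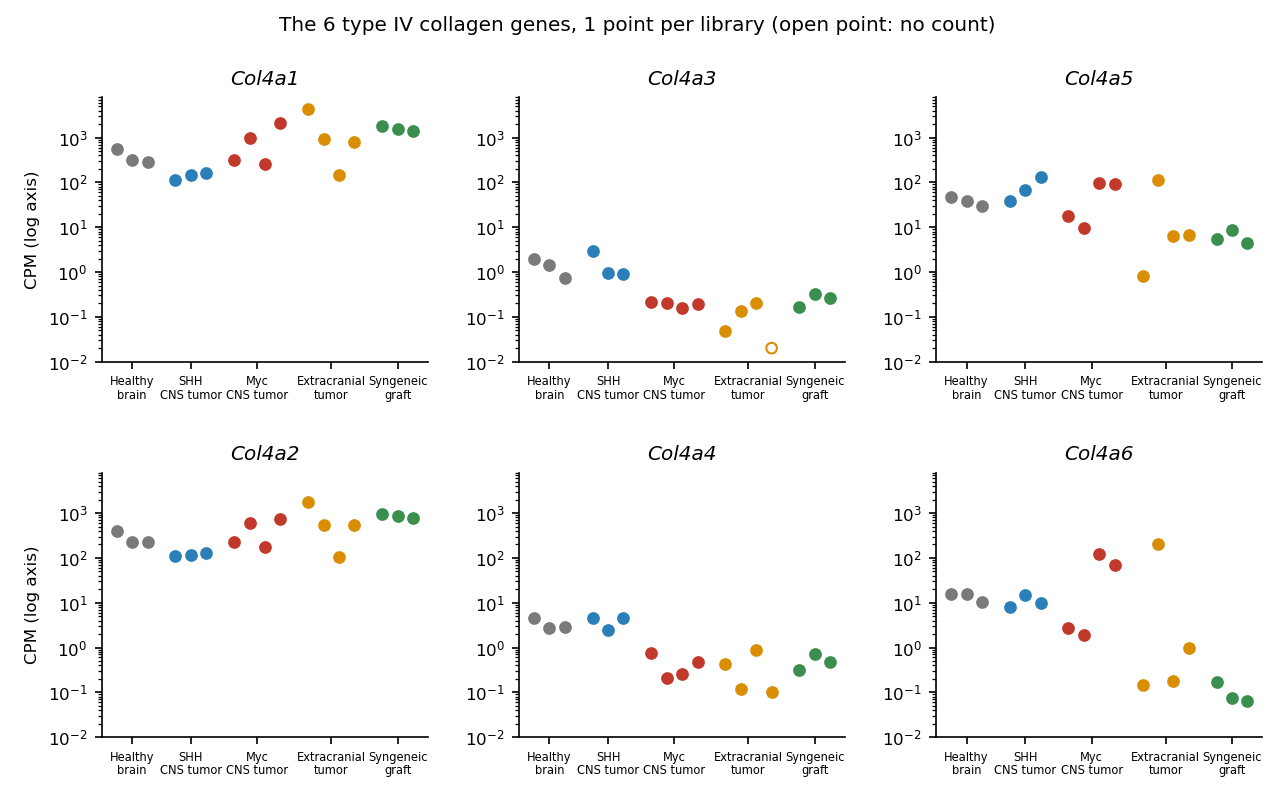
CPM (log axis) of the 6 type IV collagen genes in each library, by group, with an open point where a library had no count. Col4a1 and Col4a2 are high in all 3 grafts, Col4a3 and Col4a4 lie below the brains in Myc tumors, extracranial tumors and grafts, and Col4a5 and Col4a6 are both high in Myc CNS tumor 3 and 4 and Extracranial tumor 2.

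Col15a1 and Col18a1 encode the multiplexins, basement membrane zone proteoglycans, the second of which is the source of the fragment endostatin. Col15a1 was at 28.3, 28.5 and 37.1 CPM in brain, 378, 45.7, 18.8 and 899 in extracranial tumors and 115, 95.6 and 118 in grafts. Extracranial tumors were called higher (log2 fold change = 3.42 ± 1.08 SE, adjusted p = 0.0162), lost without Healthy brain 1, Healthy brain 2 or Extracranial tumor 4 (adjusted p = 0.0538 to 0.0622), and without Extracranial tumor 4 the log2 fold change was 2.19. Col18a1 was at 56.9, 39.6 and 30.9 CPM in brain and 1062, 26.2, 33.7 and 94.7 in Myc tumors, where Myc CNS tumor 1 exceeded the others. It was at 47.2, 369.7, 203 and 627 CPM in extracranial tumors and 105, 159 and 171 in grafts, and was not called in any comparison.

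Type VI collagen forms beaded filaments between cells and fibrils and is made by fibroblasts and muscle interstitium. All 3 of its genes were called higher in extracranial tumors than in brain. Col6a1 was at 179, 46.5 and 37.8 CPM in brain, 20.6, 137 and 17.4 in SHH tumors, 136, 106, 55.4 and 71.4 in Myc tumors, 1548, 295, 42.8 and 999 in extracranial tumors and 208, 284 and 199.96 in grafts. In extracranial tumors its change was 3.04 ± 1.05 (adjusted p = 0.0251), and that of Col6a2 was 2.57 ± 0.80 (adjusted p = 0.0158). Extracranial tumor 1, 2 and 4 lay above every brain for both genes and Extracranial tumor 3, at 42.8 and 49.3 CPM, lay within the brains' range. The Col6a1 call was lost without Healthy brain 2, Healthy brain 3 or Extracranial tumor 1 (adjusted p = 0.0665 to 0.0930) and the Col6a2 call without Healthy brain 2 or Healthy brain 3 (adjusted p = 0.0661 to 0.0676).

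Col6a3, which encodes the largest type VI chain, ran in another order among the extracranial tumors. It was at 97.4, 43.9 and 31.7 CPM in brain, 4.84, 10.1 and 7.27 in SHH tumors, 27.3, 4.75, 7.86 and 31.9 in Myc tumors, 70.8, 832, 23.7 and 349 in extracranial tumors and 122, 129.7 and 157 in grafts. Extracranial tumor 1 had the most Col6a1 but a per-kilobase ratio of Col6a3 to Col6a1 of 0.0208, against 1.28 in Extracranial tumor 2. The change against brain was 2.47 ± 0.98 (adjusted p = 0.0470), lost without Healthy brain 1, Healthy brain 2, Healthy brain 3, Extracranial tumor 2 or Extracranial tumor 4 (adjusted p = 0.0516 to 0.198), and without Extracranial tumor 2 the log2 fold change was 1.37. Against Myc tumors the difference was 4.15 ± 0.94 (adjusted p = 0.104), not called.

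Markers of fibroblasts (10 genes), the main makers of type I, III and VI collagen, were read beside these genes. Their summed level was 207 to 315 CPM in brain. It was 137 to 531 CPM in the SHH tumors, 761 to 3450.4 CPM in the Myc tumors, 491 to 6705 CPM in the extracranial tumors and 275 to 704 CPM in grafts. The highest value was that of Extracranial tumor 1, of which Dcn, the small proteoglycan decorin, gave 5640.3 CPM. Of the 10 markers, 1 was at 0 in Myc CNS tumor 2 and none was at 0 in any other library. Their part in the collagen levels was not tested.

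Of the 3 short-chain network genes, Col8a1 rose in Myc tumors. Col8a1 (chr16:57624258-57754737, minus strand) encodes a chain of type VIII collagen, known from vessel walls and the inner membrane of the cornea. It was at 29.6, 8.27 and 12.6 CPM in brain, 22.4, 13.9 and 9.93 in SHH tumors, 511, 26.2, 337 and 549 in Myc tumors, 28.6, 73.4, 109 and 17.9 in extracranial tumors and 9.14, 6.54 and 6.79 in grafts. Myc CNS tumor 1, 3 and 4 lay above every library of the other groups, and Myc CNS tumor 2 lay within the brains' range. The rise was 4.40 ± 0.93 (adjusted p = 0.00147) against brain and 4.53 ± 0.94 (adjusted p = 0.00203) against SHH tumors, and both calls held in every alternative. Col8a2, its partner, was at 2.08, 1.56, 4.98 and 0.284 CPM in Myc tumors and 28.1, 9.11 and 2.83 in brain and was not called between these groups. In grafts, at 0.394, 0.369 and 0.543 CPM, it was lower than in brain (log2 fold change = -4.93 ± 1.59 SE, adjusted p = 0.0175), lost without Healthy brain 1, Syngeneic graft 1 or Syngeneic graft 2 (adjusted p = 0.0564 to 0.0597). Col10a1 was called lower in Myc tumors, with -5.14 ± 1.73 (adjusted p = 0.0230), in extracranial tumors, with -6.71 ± 1.86 (adjusted p = 0.00804), and in grafts, with -7.73 ± 2.21 (adjusted p = 0.00886). Without Healthy brain 1 no call was left, and the log2 fold changes were 1.64 (adjusted p = 0.295), 0.08 (adjusted p = 0.962) and -0.94 (adjusted p = 0.545).

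FACIT genes were the class with the most calls toward lower levels: 5 of 9 in Myc tumors, 5 of 9 in extracranial tumors and 7 of 9 in grafts, against 0, 1 and 0 higher. Over all genes 26.8%, 26.1% and 30.4% were called lower. Of the 7 calls in grafts, those of Col12a1 and Col16a1 were lost without Healthy brain 1 (adjusted p = 0.145 and 0.142). Col9a1, Col9a2 and Col9a3 encode type IX collagen, which coats type II fibrils in cartilage. Col9a2 (chr4:121039385-121055322, plus strand) was at 115, 41.7 and 50.3 CPM in brain, 14.1, 3.78 and 5.75 in SHH tumors, 0.547, 1.56, 2.18 and 1.57 in Myc tumors, 0.195, 0.214, 2.30 and 1.53 in extracranial tumors and 0.0281, 0.0553 and 0.0209 in grafts, where it rested on 1 to 3 reads per library. The fall was -5.54 ± 0.87 (adjusted p = 0.000169) in Myc and -6.02 ± 0.89 (adjusted p = 0.000102) in extracranial tumors. Col9a3 was at 90.8, 45.5 and 43.8 CPM in brain and 0.952 to 6.70 in these 3 groups, and Col9a1 at 74.2, 3.02 and 2.78 in brain and 0 to 0.658. For Col9a2 and Col9a3 every one of these libraries lay below every brain, and the calls of both genes against brain in the 3 groups had an adjusted p under 0.05 in each alternative that gave one.

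Col22a1 (chr15:71795795-72034227, minus strand), known from the junctions between muscle and tendon, was at 30.6, 16.1 and 14.5 CPM in brain, 1.98, 3.46 and 0.747 in SHH tumors, 0.109, 0.0521, 0.314 and 0.448 in Myc tumors, 0.0488, 0.214, 1.01 and 0.272 in extracranial tumors and 0.113, 0.0737 and 0.157 in grafts. No tumor library overlapped with the brains. The fall was -6.35 ± 0.94 (adjusted p = 0.000107) in Myc tumors, -5.70 ± 0.91 (adjusted p = 0.000184) in extracranial tumors and -7.44 ± 1.12 (adjusted p = 0.000110) in grafts, where it rests on 4 to 15 reads per library, and held in every alternative. Col19a1 was at 1.43, 3.38 and 2.90 CPM in brain and at 0 to 0.740 in these groups. It was called lower in Myc tumors and grafts under every alternative, and in extracranial tumors with a call lost without Healthy brain 2, Healthy brain 3, Extracranial tumor 1 or Extracranial tumor 4 (adjusted p = 0.0531 to 0.0599).

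Col16a1, found on fibrils and at cell surfaces in skin and cartilage, was the FACIT gene called higher in extracranial tumors. It was at 101, 34.3 and 40.7 CPM in brain, 64.2, 33.1 and 29.6 in SHH tumors, 408, 137, 157 and 158 in Myc tumors, 8.83, 389, 1000.2 and 769.9 in extracranial tumors and 8.64, 8.75 and 12.6 in grafts. All Myc tumors lay above all brains, whereas among extracranial tumors the first lay below them and the other 3 above. Extracranial tumors were called higher than brain (log2 fold change = 3.21 ± 0.995 SE, adjusted p = 0.0150), lost without Healthy brain 2 or Healthy brain 3 (adjusted p = 0.0603 to 0.0614). Grafts were lower than extracranial tumors (log2 fold change = -5.76 ± 1.14 SE, adjusted p = 0.0221), lost without Syngeneic graft 1, Syngeneic graft 2 or Syngeneic graft 3 (adjusted p = 0.0784 to 0.0994), and the graft levels lay beside that of Extracranial tumor 1. Grafts were also lower than brain (log2 fold change = -2.55 ± 0.996 SE, adjusted p = 0.0417), lost without Healthy brain 1, Healthy brain 3, Syngeneic graft 1, Syngeneic graft 2 or Syngeneic graft 3 (adjusted p = 0.0524 to 0.142).

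Col12a1 and Col14a1 encode the FACIT chains that coat type I fibrils in tendon and skin. Col12a1 was at 182, 31.3 and 20.5 CPM in brain, 19.7, 124, 122 and 173 in extracranial tumors and 14.8, 10.9 and 5.66 in grafts. Grafts differed from brain by -2.90 ± 0.87 (adjusted p = 0.0119), lost without Healthy brain 1 or Syngeneic graft 3 (adjusted p = 0.0502 to 0.145), and from extracranial tumors by -3.39 ± 0.87 (adjusted p = 0.0427), lost without Extracranial tumor 2, Extracranial tumor 3, Extracranial tumor 4, Syngeneic graft 1, Syngeneic graft 2 or Syngeneic graft 3 (adjusted p = 0.0506 to 0.150). Col14a1 was at 2.08 to 30.5 CPM in brain. It was 3.06 to 12.1 CPM in the SHH tumors, 6.01 to 78.6 CPM in the Myc tumors, 7.72 to 68.7 CPM in the extracranial tumors and 14.2 to 47.8 CPM in grafts. Col20a1 was at 1.95 to 14.3 CPM over all libraries. Neither Col14a1 nor Col20a1 was called in any comparison.

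The transmembrane collagens are anchored in the cell membrane. Col23a1 (chr11:51289920-51583918, plus strand) was at 22.3, 25.6 and 20.6 CPM in brain, 29.6, 58.6 and 29.6 in SHH tumors, 3.01, 0.626, 1.27 and 1.18 in Myc tumors, 1.95, 3.50, 6.44 and 1.63 in extracranial tumors and 1.07, 0.534 and 0.689 in grafts. Every Myc tumor, extracranial tumor and graft lay below every brain and every SHH tumor. The change against brain was -3.92 ± 0.57 (adjusted p = 9.91e-05) in Myc tumors, -2.75 ± 0.55 (adjusted p = 0.000917) in extracranial tumors and -4.90 ± 0.67 (adjusted p = 5.25e-05) in grafts. Between Myc and SHH tumors it was -4.70 ± 0.59 (adjusted p = 8.87e-05), and these 4 calls held in every alternative.

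Col25a1, a collagen made by neurons, was at 62.1, 50.3 and 69.4 CPM in brain, 72.3, 46.1 and 5.41 in SHH tumors, 1.42, 0.417, 63.8 and 0.628 in Myc tumors, 0.146, 0.331, 1.01 and 0.510 in extracranial tumors and 0.0563, 0.442 and 0.125 in grafts. Myc CNS tumor 3 lay within the brains' range and SHH CNS tumor 2 and 3 below it. Extracranial tumors were lower than brain (log2 fold change = -6.90 ± 1.66 SE, adjusted p = 0.00339), a call that every single-library omission kept and that was lost without the 4 libraries with the highest muscle sums (adjusted p = 0.0551). The summed level of 8 neuron markers was 4732 to 5514 CPM in brain. It was 434 to 3447 CPM in the SHH tumors, 97.2 to 553 CPM in the Myc tumors, 61.8 to 448 CPM in the extracranial tumors and 146 to 211 CPM in grafts, and was 361 in Myc CNS tumor 3. Of the 8 markers, 1 was at 0 in Myc CNS tumor 2 and 1 in Extracranial tumor 1. Their part in the levels of Col23a1 and Col25a1 was not tested.

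Col13a1, a chain of the neuromuscular junction and of cell adhesion sites, was at 7.73, 9.94 and 75.2 CPM in SHH tumors and 11.7, 2.97, 2.02 and 0.628 in Myc tumors, against 7.05, 3.92 and 2.55 in brain. Myc tumors were called lower than SHH tumors (log2 fold change = -2.85 ± 1.01 SE, adjusted p = 0.0354), lost without SHH CNS tumor 3, Myc CNS tumor 2, Myc CNS tumor 3 or Myc CNS tumor 4 (adjusted p = 0.0623 to 0.411), and without SHH CNS tumor 3 the log2 fold change was -1.04. Against brain, SHH tumors differed by 2.78 ± 1.11 (adjusted p = 0.164), not called. Col17a1, the collagen of epithelial hemidesmosomes, was at 4.19, 9.62 and 10.8 CPM in grafts and 1.34, 0.553 and 0.772 in brain, with no overlap. It was called higher (log2 fold change = 3.20 ± 1.23 SE, adjusted p = 0.0385), lost without Healthy brain 1, Healthy brain 2, Healthy brain 3, Syngeneic graft 2 or Syngeneic graft 3 (adjusted p = 0.0623 to 0.112). The summed level of 8 skin epithelium markers was 8.61 to 13.1 CPM in grafts and 16.5 to 24.0 CPM in brain. In the grafts 4 to 6 of these 8 markers were at 0, Krt14 among them in each graft. Their part in Col17a1 was not tested.

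Col7a1 (chr9:108953586-108984875, plus strand) encodes the anchoring fibrils that tie skin epithelium to the dermis. It was at 14.9, 12.2 and 10.7 CPM in brain, 11.3, 10.6 and 7.63 in SHH tumors, 3.23, 90.002, 6.31 and 556 in Myc tumors, 8.98, 4.11, 1.85 and 3.81 in extracranial tumors and 2.81, 9.44 and 2.96 in grafts. The call in Myc tumors (log2 fold change = 3.70 ± 1.33 SE, adjusted p = 0.0310) came from a group in which Myc CNS tumor 2 and 4 lay above every brain and the other Myc tumors below every brain. It was lost without Healthy brain 1, Healthy brain 2, Healthy brain 3 or Myc CNS tumor 4 (adjusted p = 0.0742 to 0.246), and without Myc CNS tumor 4 the log2 fold change was 1.40. The difference of extracranial from Myc tumors was -5.13 ± 1.27 (adjusted p = 0.125), not called. Col26a1 was at 53.1, 40.7 and 45.0 CPM in brain and 0.437, 0.469, 0.122 and 0.329 in Myc tumors (log2 fold change = -7.14 ± 1.67 SE, adjusted p = 0.00288), a call kept in every alternative. In extracranial tumors it was at 0, 0.272, 7.82 and 0 CPM and in grafts at 0.0563, 0.0921 and 0.0209. Col28a1 ran from 0.0521 to 15.1 CPM and was not called in any comparison.

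The enzymes and chaperones that make collagen were read from a list of 18 genes for modification and secretion. Against brain, 12 were called higher in Myc tumors, 11 in extracranial tumors and 9 in grafts, and none lower, while in SHH tumors 1 was higher. Of all genes 25.3% were called higher in Myc tumors, 26.1% in extracranial tumors, 24.9% in grafts and 2.44% in SHH tumors. The list's median log2 fold change was 1.67 in Myc tumors, 1.67 in extracranial tumors and 0.85 in grafts, beside the medians of all genes given above. Crtap, part of the complex that hydroxylates proline in nascent chains, was at 9.05 to 19.9 CPM in brain. It was 7.76 to 10.1 CPM in the SHH tumors, 90.5 to 135 CPM in the Myc tumors, 98.3 to 159 CPM in the extracranial tumors and 68.6 to 77.1 CPM in grafts. Its rise was 3.13 ± 0.29 (adjusted p = 4.30e-06) in Myc tumors, 3.26 ± 0.29 (adjusted p = 3.06e-06) in extracranial tumors and 2.41 ± 0.29 (adjusted p = 1.95e-05) in grafts, and Myc tumors exceeded SHH tumors by 3.68 ± 0.30 (adjusted p = 7.78e-06). P4hb, a subunit of the main collagen prolyl hydroxylase that also acts as a disulfide isomerase, was higher in Myc tumors (log2 fold change = 2.60 ± 0.33 SE, adjusted p = 3.52e-05). In grafts 9 of these 18 genes and 2 of the 41 collagen genes were called higher, beside 24.9% of all genes. The number of collagen genes called higher in grafts depended on the fit, as given in the last section.

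The 12 genes for procollagen processing and cross-linking gave 2 higher and 1 lower in Myc tumors, 1 and 2 in extracranial tumors, 0 and 2 in grafts and none in SHH tumors. These shares lie below those of all genes called in the first 3 comparisons (25.3% higher and 26.8% lower in Myc tumors, 26.1% and 26.1% in extracranial tumors, 24.9% and 30.4% in grafts). Loxl3, a lysyl oxidase that cross-links fibrils, rose by 5.55 ± 1.47 (adjusted p = 0.00611) in extracranial tumors. In Myc tumors its change was 3.92 ± 1.35 (adjusted p = 0.0252), lost without Healthy brain 2 (adjusted p = 0.0843), Healthy brain 3 (0.0854) or Myc CNS tumor 3 (0.101). Adamts3, an enzyme that trims the amino end of procollagen, was the list's lower call in Myc tumors, with -2.36 ± 0.74 (adjusted p = 0.0160). Its change was -3.89 ± 0.78 (adjusted p = 0.000989) in extracranial tumors and -2.65 ± 0.83 (adjusted p = 0.0146) in grafts. Between Myc and SHH tumors 5 were higher and 1 lower, where 19% and 21.9% of all genes were called. Among the higher was Lox (log2 fold change = 6.01 ± 1.75 SE, adjusted p = 0.0141), lost without SHH CNS tumor 1 (adjusted p = 0.0574) or SHH CNS tumor 3 (0.0528).

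Of 9 collagen receptors, 3 were higher in Myc tumors, 4 in extracranial tumors and 2 in grafts, and none was lower. Of all genes 25.3%, 26.1% and 24.9% were called higher in these groups, and the share of receptors in Myc tumors and grafts is near that. Lair1, an inhibitory collagen receptor of immune cells, rose by 3.44 ± 0.63 (adjusted p = 0.000530) in Myc tumors and 5.41 ± 0.71 (adjusted p = 3.77e-05) in grafts. The summed level of 8 macrophage markers was 65.8 to 93.6 CPM in brain, 1431 to 4576 in Myc tumors and 5946 to 10002 in grafts, and its part in Lair1 was not tested. In SHH tumors 2 receptors were higher, where 2.44% of all genes were called higher. Of these 2, the kinase Ddr1 rose by 2.24 ± 0.59 (adjusted p = 0.0478), a call lost when any 1 of the 6 libraries was left out (adjusted p = 0.0519 to 0.179). Myc tumors were lower than SHH tumors for Ddr1 (log2 fold change = -2.63 ± 0.54 SE, adjusted p = 0.00199).

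Of 15 laminin, nidogen and proteoglycan genes of basement membranes, 3 were higher and 3 lower in Myc tumors, 2 and 4 in extracranial tumors, 3 and 4 in grafts, and 0 and 2 in SHH tumors. All genes were called higher and lower at 25.3% and 26.8% in Myc tumors, 26.1% and 26.1% in extracranial tumors, 24.9% and 30.4% in grafts and 2.44% and 1.94% in SHH tumors. Hspg2, which encodes the heparan sulfate proteoglycan perlecan, was higher in Myc tumors (log2 fold change = 3.29 ± 0.73 SE, adjusted p = 0.00206). Agrn, which encodes agrin, was lower in SHH tumors (log2 fold change = -1.83 ± 0.27 SE, adjusted p = 0.00532), and also in Myc tumors with -2.37 ± 0.25 (adjusted p = 9.54e-06), in extracranial tumors with -2.30 ± 0.25 (adjusted p = 1.03e-05) and in grafts with -2.87 ± 0.28 (adjusted p = 4.70e-06).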

How the data were processed

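Polyadenylated RNA of 17 mouse libraries was sequenced from TruSeq Stranded libraries, per the labels' protocols. Reads were aligned with STAR 2.5.3a to mm10, per the submitters' processing notes. The tool and strand setting of the counting are not given in the sources used here. The deposited values are raw counts of reads per gene, without normalization by the authors. The 50600 identifiers were matched to GENCODE on GRCm38, and all 41 collagen genes matched, 33 with the same version.

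Counts were fitted with edgeR 4.0.16 (quasi-likelihood, robust, TMM factors) in R 4.3.3. All 17 libraries entered 1 fit with 1 mean per group. Genes under a minimum count of 10 were removed by filterByExpr, which left 21494 genes with 99.96% of the counts. There were 7 contrasts, and calls were made under 0.05 after Benjamini-Hochberg adjustment over all genes tested. CPM was computed from counts and TMM-scaled totals, and CPM per kilobase over the annotated principal transcript. At 18685672 to 130835711 counted reads per library, 1 read was worth at most 0.0547 CPM. The script was tested on simulated data.

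Alternatives were RLE factors, other count filters, DESeq2 1.42.0, limma 3.58.1 voom, the labels' library numbers as a block, only the compared groups, and libraries left out. The collagen genes, the other gene lists and the alternatives were chosen with earlier results of these data known. Besides the 41 genes, a listed gene was named for being among the 4 smallest adjusted p of its list in a comparison, for moving against it, or as a defining marker. Replicate libraries differed by far more than sampling noise, so none was taken for a copy. Promoter sequences came from RefSeq (GRCm38.p6), which held a window for 32 of the 41 genes.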

Additional observations from a re-analysis of the deposited data

Results flagged for a closer look

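In groups of 4 libraries, the highest or lowest library was compared with the others by Dixon's gap over range. Of 82 combinations of a collagen gene with the Myc or extracranial tumors, 17 had such a library. For normally distributed values chance gives about 1 in 20, but these are CPM on a linear scale. Of the 17, 16 were the highest library. Neither the rate for such values nor the rate over all genes was tested. Extracranial tumor 2 stood apart with Col11a1 at 296 CPM (others 6.63 to 47.2), Col4a5 at 116 CPM (others 0.8292 to 6.80), Col4a6 at 203 CPM (others 0.146 to 0.952), Col10a1 at 0.525 CPM (others 0.0340 to 0.0976) and Col19a1 at 0.740 CPM (others 0 to 0.102). Extracranial tumor 3 stood apart with Col26a1 at 7.82 CPM (others 0 to 0.272). Extracranial tumor 4 stood apart with Col24a1 at 0.102 CPM (the lowest, others 0.244 to 0.268), Col27a1 at 73.0 CPM (others 4.27 to 12.8) and Col17a1 at 16.7 CPM (others 0.798 to 0.878). The Col24a1 value rests on 3 reads, against 5 to 13 in the other extracranial tumors. Myc CNS tumor 1 stood apart with Col18a1 at 1062 CPM (others 26.2 to 94.7), Col16a1 at 408 CPM (others 137 to 158) and Col28a1 at 15.1 CPM (others 0.0521 to 0.821). Myc CNS tumor 3 stood apart with Col11a1 at 909 CPM (others 43.2 to 134) and Col25a1 at 63.8 CPM (others 0.417 to 1.42). Myc CNS tumor 4 stood apart with Col1a1 at 5548 CPM (others 11.3 to 297), Col2a1 at 7.41 CPM (others 0.273 to 1.25) and Col7a1 at 556 CPM (others 3.23 to 90.002). All 5 of the genes in Extracranial tumor 2 lay above the other extracranial tumors, among them the neighbours Col4a5 and Col4a6. In Myc CNS tumor 4 the genes were the fibrillar Col1a1 and Col2a1 and the anchoring fibril gene Col7a1, beside 1066 CPM of the cartilage gene Matn3 and 0.0747 of Matn1. In Myc CNS tumor 3 they were Col11a1 and the neuronal Col25a1, beside 361 CPM of summed neuron markers. Why these libraries stood apart was not tested.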

How the results depend on the processing

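Numbers of collagen genes called moved by more than 1.5 times from those of the edgeR fit as follows, and other counts stayed within that. Shares of all genes called under the alternatives are not given here. A moved count therefore does not show a change particular to collagen genes. DESeq2 called 1 higher and 5 lower in SHH tumors against brain, 13 higher in extracranial tumors against brain, 4 higher and 4 lower in extracranial against Myc tumors and 13 lower in grafts against extracranial tumors. Limma voom called 4 higher and 7 lower in SHH tumors, 9 higher in Myc tumors, 17 higher in extracranial tumors and 12 higher in grafts, each against brain. Fits of the compared groups alone called 1 higher and 5 lower in SHH tumors, 3 higher in extracranial tumors and 7 higher in grafts against brain, and 0 lower in grafts against extracranial tumors. With every gene that had a count tested, 5 were higher in extracranial tumors and 1 in grafts against brain, 4 in Myc against SHH tumors, and 3 were lower in grafts against extracranial tumors.

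Leaving out both Healthy brain 1 and SHH CNS tumor 1, 4 were higher in Myc against SHH tumors. Without Healthy brain 1, Myc CNS tumor 1 and Extracranial tumor 1 and 2, the 4 libraries with the highest muscle sums, 1 was lower in SHH tumors, 7 were higher in Myc tumors and 7 in grafts against brain, and 1 was higher in extracranial against Myc tumors. Leaving out single libraries gave 0 higher and 0 to 1 lower in SHH tumors, 2 to 6 and 10 to 13 in Myc tumors, 1 to 10 and 12 to 16 in extracranial tumors and 0 to 3 and 15 to 19 in grafts, each against brain. It gave 4 to 9 higher and 8 to 11 lower in Myc against SHH tumors, 0 and 0 in extracranial against Myc tumors, and 0 to 1 and 0 to 11 in grafts against extracranial tumors. 

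The replicate block on the labels' library numbers gave 5 higher in extracranial tumors against brain, 5 higher in Myc against SHH tumors and 2 lower in grafts against extracranial tumors. No pairing by these numbers was seen: over 22 same-numbered pairs the correlation of deviations from the group means ran from -0.18 to 0.0830, with 0 pairs over 0.1. A pair with different numbers, Myc CNS tumor 2 and Healthy brain 1, reached 0.18. Deviations within such small groups are not independent, so low correlations cannot exclude shared animals or batches.

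The fold change of Col10a1 turned from lower to higher in Myc tumors, to 1.64 (log2) without Healthy brain 1, 1.63 without that brain and SHH CNS tumor 1, 1.26 without the 4 libraries and 0.39 in limma voom. In extracranial tumors it turned to 0.0770 without Healthy brain 1 and 0.0738 without both, and no other printed fold change turned its direction. Over all single libraries left out, it ran from -5.76 to 1.64 in Myc tumors and from -8.14 to 0.0770 in extracranial tumors. Of 1270 recomputed printed fold changes, 1082 kept their direction and either stayed on their side of the threshold or had no adjusted p. Another 159 lost the call and 23 gained it. RLE factors moved the median fold change of the listed genes (collagen, other lists and Smarcb1) by at most 0.0918 (log2) from TMM. With 3 or 4 libraries a group, a gene not called is not shown to be equal. In grafts Col9a1, Col9a2, Col19a1 and Col26a1 had at most 5 reads per library and their fold changes there are not quoted, while those of Col2a1, Col4a6 and Col22a1 rest on 4 to 21 reads per library and that of Col10a1 on 0 to 20. Quoted fold changes in other groups also rest on few reads. In extracranial tumors, for example, Col24a1 had 3 to 13 and Col10a1 1 to 27 reads per library. The causes of the differences between settings were not tested.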
